A study of Mus musculus with 6 samples.

Results

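The core autophagy machinery comprised 39 mouse genes that build an autophagosome, select its cargo or deliver it to the lysosome. They were chosen by name, with earlier results of these data known, and were read from 54532 deposited gene identifiers. All 39 were found in the annotation, and 38 of them were tested. Wipi1 fell below the filter on low values. RNA-seq was performed on 6 libraries of LPS-treated immortalized bone marrow-derived macrophages (iBMDMs), 3 from control and 3 from PGAM5 KD cells, to ask how loss of the mitochondrial phosphatase PGAM5 affects the macrophage response to LPS. Both groups came from mouse bone marrow-derived macrophages that had been immortalized with retroviruses carrying v-raf and v-myc. The control group carried a control shRNA and the PGAM5 KD group carried an shRNA against PGAM5, both delivered by lentivirus. LPS (100 ng/ml) was given for 4 hours in all 6 samples, so no untreated level was available here. Whether replicates were separate infections, cultures or technical repeats is not given in the sources used here, so p-values measure the spread between these libraries.

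In autophagy, a double membrane grows around cytoplasmic cargo and then fuses with a lysosome, where the cargo is degraded. The ULK1 kinase complex starts the process, the class III PI3-kinase complex marks the site with the lipid PI3P, and PI3P readers, lipid-transfer proteins and ATG9 vesicles extend the membrane. A pair of ubiquitin-like conjugation reactions attaches ATG8 proteins (LC3 and GABARAP) to it, and receptors such as p62 bind ubiquitinated cargo and ATG8 together. In macrophages, this pathway removes damaged mitochondria and intracellular bacteria, and parts of it also act on phagosomes. Many of its proteins are controlled by phosphorylation, lipidation and turnover, which mRNA levels do not measure.

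The libraries held between 18163463 and 24388915 fragments, and Pgam5 differed in the labelled direction. It read 17.1, 13.0 and 13.4 FPKM (fragments per kilobase of exon, scaled to library depth) in control and 4.33, 5.75 and 4.53 FPKM in PGAM5 KD libraries (log2 fold change -1.40, SE 0.127, adjusted p = 0.000358). Of 8 macrophage markers, 7 were detected and Mertk was listed at 0. Their summed level ranged from 2802 to 2894 FPKM in control and from 2526 to 2545 FPKM in PGAM5 KD libraries. Most of this sum was Lyz2, with group means of 1665.5 FPKM in control and 1265 FPKM in PGAM5 KD libraries. Single markers moved in both directions, with 4 higher and 3 lower in PGAM5 KD cells. Mean Fcgr1 went from 4.34 to 14.1 FPKM and mean Csf1r from 231 to 148 FPKM. The part of these marker differences in the results that follow was not tested. In each of the neutrophil, fibroblast and lymphocyte lists, 4 of 6 markers were at 0 in every library, and no marker of these lists exceeded 0.328 FPKM. In bulk RNA, fewer cells expressing a gene and less of its mRNA per cell cannot be told apart.

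The machinery was transcribed over a wide range of levels. Mean FPKM over the 6 libraries was between 0.532 for Wipi1 and 221 for Sqstm1, with 16 members under 5 FPKM, 21 between 5 and 30 FPKM and 2, Sqstm1 and Gabarap, above 30 FPKM. These most abundant transcripts encode a cargo receptor and an ATG8 protein, and at the start of the pathway the group means ran from 1.89 FPKM for Rb1cc1 to 18.9 FPKM for Atg13.

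**Figure D1:**
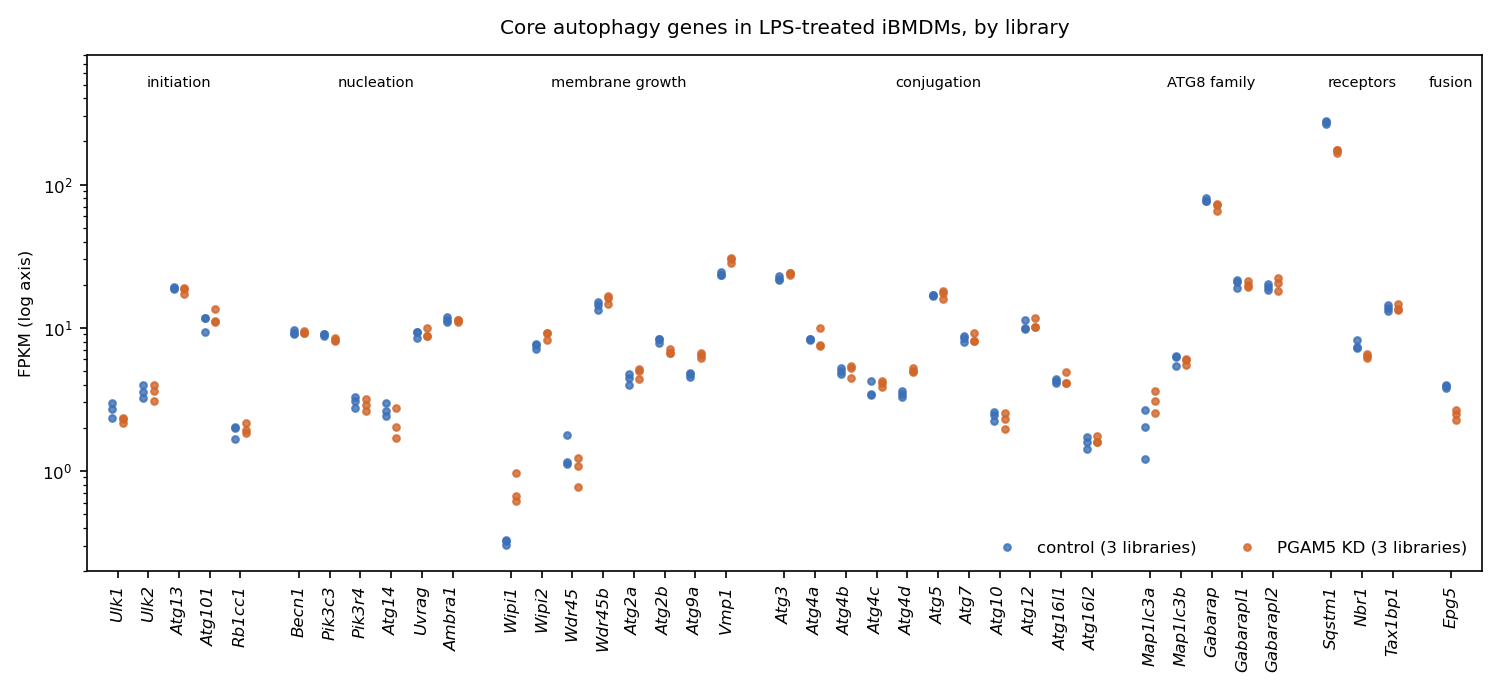
FPKM (log axis) of the 39 core autophagy genes in each of 3 control (blue) and 3 PGAM5 KD (orange) libraries, with genes grouped by step and no error bars, since each point is a library. Sqstm1 is the highest member and lies lower in all PGAM5 KD libraries, Wipi1 is the lowest member and lies higher, and for most of the other genes the points of the groups overlap.

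To compare the groups, log2(FPKM + 1) was tested with limma over 10540 genes, and a gene was called at an adjusted p under 0.05. The fold changes below are differences on this scale, which understates changes of genes with few FPKM. Of the 38 members tested, 8 were called, 4 higher and 4 lower in PGAM5 KD cells, which is 21.1% against 31.7% of all genes tested. The background was 16.8% for higher calls and 14.9% for lower calls. Atg4d, Atg9a, Vmp1 and Wipi2 rose, and Sqstm1, Epg5, Atg2b and Nbr1 fell. On this scale, 0 of the 38 members tested passed the absolute log2 fold change of 1 that the study added to its threshold, which 1.32% of all genes passed together with the adjusted p. The libraries of the groups did not overlap for 11 members (28.9%), 5 higher and 6 lower, against 47.1% of all genes. At an unadjusted p under 0.05 there were also 11 members (28.9%), against 42.8% of all genes. The comparison with all genes depended on the filter. With no filter on low values, over 20816 genes, 7 of 39 members were called, a larger share than the 12.4% of all genes.

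The median log2 fold change of the members was 0.0063, beside 0.013 for all genes, and 21 were positive and 17 negative. Their median absolute change was 0.081, against 0.155 for all genes, while the median standard error (0.0701 and 0.0722) and the median level (7.82 and 8.84 FPKM) of members and of all genes were close. For the 30 members that were not called, the 95% interval reached a median of 0.183 to either side of the estimate, with a range from 0.10 to 0.456. Of these 30 intervals, 27 lay wholly within 0.5 of zero and 22 within 0.3, and differences inside these bounds are not shown to be absent.

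Scaling the libraries to TPM, which removes a difference between the groups in summed FPKM (304393 to 304889 in control, 317936 to 324298 in PGAM5 KD), lowered the median of all genes to -0.060. With it, the higher share of all calls went from 52.9% to 32.3%, the members called became 3 higher and 6 lower, and of the 38 fold changes 10 were positive and 28 negative, with a median of -0.07. No called member changed sign under this or any other alternative. The number of members called was 5 without control replicate 2, without control replicate 3 or without PGAM5 KD replicate 3. The share of all genes called in these fits also fell, to 23.8%, 23.0% and 22.2%. Atg9a, Vmp1, Atg4d, Sqstm1 and Epg5 passed in every alternative that tested them, and Wipi2, Atg2b and Nbr1 did not.

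**Figure D2:**
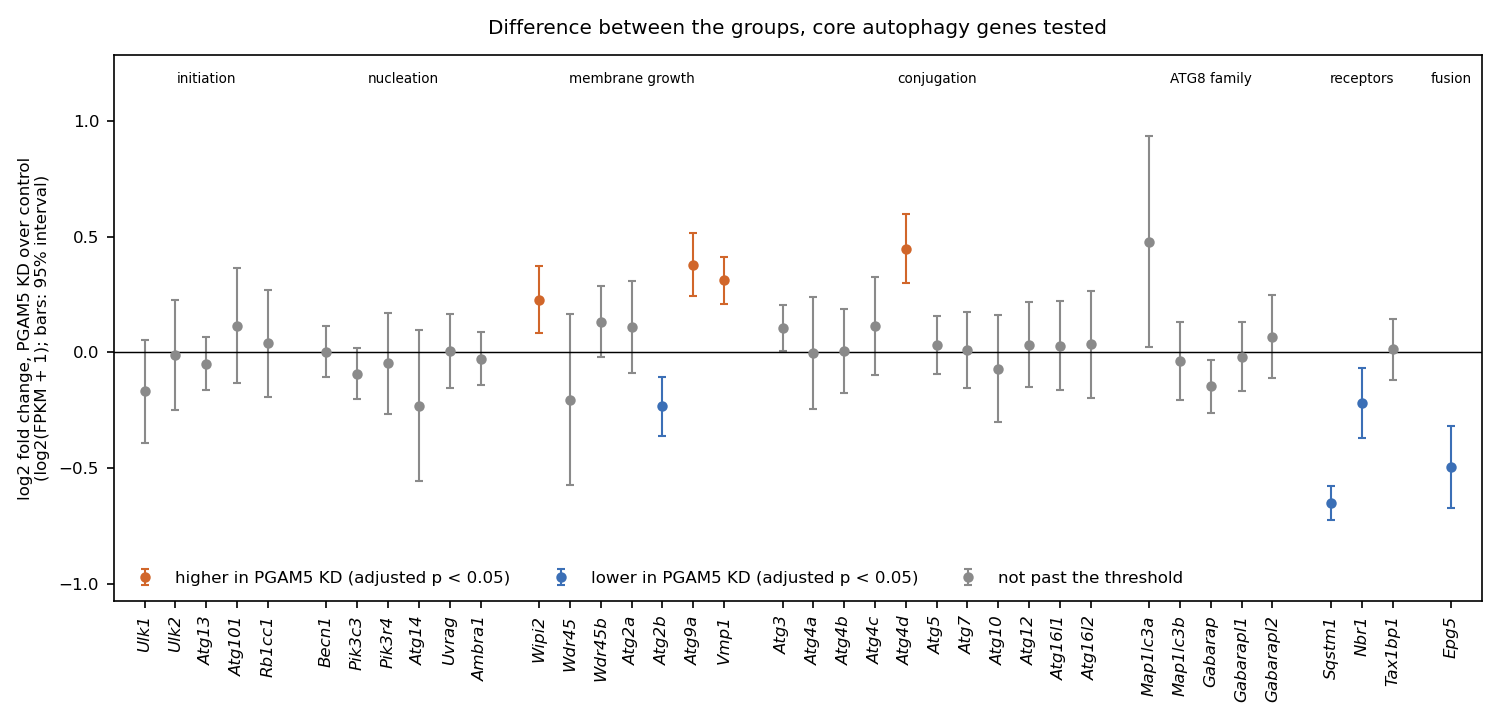
Log2 fold change (PGAM5 KD over control, on log2(FPKM + 1)) with its 95% interval for the 38 members tested, by step, from limma on 3 control and 3 PGAM5 KD libraries. The called members, 4 higher in orange and 4 lower in blue, lie in the membrane growth, conjugation, receptor and fusion steps, and the intervals of the initiation and nucleation genes all include 0.

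Proximal promoter sequence was available for 31 of the 39 members (RefSeq, build GRCm38.p6, 250 bases before to 50 after each start). The motifs below and the genes shown were chosen after the values were seen, and a match describes letters, not a bound site. The E-box CACGTG, which TFEB and related regulators of lysosomal and autophagy genes can bind, was in 4 of the 31 (Atg3, Atg5, Atg7 and Atg14; 12.9%) and in 8.09% of all genes, on either strand. None of these 4 genes was called, where 31.7% of all genes were, and 4 genes are too few to compare with that share. Its longer form TCACGTGA, which contains the E-box, was in Atg3, that is 3.23% of the members and 1.12% of all genes. The core TGACNNNGC of the antioxidant response element, read by NRF2, was in 5 members (Atg13, Map1lc3b, Tax1bp1, Ulk2 and Vmp1; 16.1%) and in 14.0% of all genes. The AP-1 letters TGANTCA were in 0 of the 31 and in 8.97% of all genes. Sequence upstream of the transcription start is shown for the member with the largest fall on the log2(FPKM + 1) scale (Sqstm1), that with the largest called rise (Atg4d), the called member with an antioxidant core (Vmp1, 1 of its 3 starts) and the member with 2 E-boxes (Atg3), read 5′ to 3′ with the E-box and the antioxidant core in capitals. The Sqstm1 run lies on the minus strand at chr11:50210828-50211070, Atg4d on the plus strand at chr9:21265035-21265284, Vmp1 on the minus strand at chr11:86683837-86684086, and Atg3 on the plus strand at chr16:45158579-45158784.
Sqstm1: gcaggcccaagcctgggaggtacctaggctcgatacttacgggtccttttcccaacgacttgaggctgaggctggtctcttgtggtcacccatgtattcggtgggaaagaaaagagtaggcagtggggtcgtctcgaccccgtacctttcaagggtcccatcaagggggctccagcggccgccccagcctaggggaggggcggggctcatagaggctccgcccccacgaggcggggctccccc
Atg4d: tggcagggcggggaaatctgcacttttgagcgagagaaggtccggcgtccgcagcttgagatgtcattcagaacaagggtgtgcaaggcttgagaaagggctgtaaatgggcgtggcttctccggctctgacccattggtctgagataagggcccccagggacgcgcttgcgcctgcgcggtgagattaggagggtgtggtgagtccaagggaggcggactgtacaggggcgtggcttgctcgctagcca
Vmp1: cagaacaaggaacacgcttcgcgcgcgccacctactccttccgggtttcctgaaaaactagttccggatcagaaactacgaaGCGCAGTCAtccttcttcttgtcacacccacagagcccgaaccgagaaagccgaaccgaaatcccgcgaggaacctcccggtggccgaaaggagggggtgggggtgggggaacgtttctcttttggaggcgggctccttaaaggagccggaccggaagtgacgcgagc
Atg3: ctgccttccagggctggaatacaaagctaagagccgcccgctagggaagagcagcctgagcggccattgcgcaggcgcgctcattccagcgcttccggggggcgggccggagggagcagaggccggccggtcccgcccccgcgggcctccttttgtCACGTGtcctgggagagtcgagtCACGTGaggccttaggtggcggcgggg

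The 5 members of the initiation complex are the kinases Ulk1 and Ulk2, the adaptor Atg13 with its partner Atg101, and the large scaffold Rb1cc1 (FIP200). None of the 5 was called, where 31.7% of all genes were, and the fold changes ran from -0.17 for Ulk1 to 0.12 for Atg101. The Ulk1 estimate had a 95% interval from -0.39 to 0.05 (adjusted p = 0.219), and that of Atg13, the most abundant of the 5 at 18.9 ± 0.374 FPKM in control and 18.3 ± 0.951 FPKM in PGAM5 KD libraries (SD, n = 3), an interval from -0.16 to 0.07. Libraries of the groups overlapped for all 5, and did not for 47.1% of all genes. Ulk2 made up 54.3% to 59.7% of the summed Ulk1 and Ulk2 FPKM in control and 56.8% to 64.9% in PGAM5 KD libraries, and these ranges overlap.

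None of the 6 nucleation genes was called either, against 31.7% of all genes. They encode the lipid kinase VPS34 (Pik3c3), its regulatory subunit VPS15 (Pik3r4), Beclin 1 (Becn1), the alternative partners Atg14 and Uvrag, which direct the complex to autophagosomes or endosomes, and the regulator Ambra1. Pik3c3 was the member of the complex whose libraries did not overlap, 1 of 6 against 47.1% of all genes. It ranged from 8.72 to 8.99 FPKM in control and from 8.12 to 8.50 FPKM in PGAM5 KD libraries, with a log2 fold change of -0.09 (SE 0.0463, adjusted p = 0.174). It passed only after scaling to TPM (-0.18, adjusted p = 0.035). The Atg14 estimate was larger (-0.23) but had one of the widest intervals, from -0.56 to 0.10, and it was -0.12 without PGAM5 KD replicate 1 and -0.36 without PGAM5 KD replicate 2. Becn1, at 9.28 ± 0.322 and 9.30 ± 0.101 FPKM (SD, n = 3), had an interval from -0.11 to 0.11, the other three from -0.27 to 0.17 at the widest. The gene Cntd1 shares 43.9% of the exon bases of Becn1 on the opposite strand, and at least 98.8% of the fragments of both were counted on Becn1.

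Of the 7 membrane growth genes tested, 4 were called, in both directions, and 31.7% of all genes were. Atg9a, Vmp1 and Wipi2 rose and Atg2b fell, the calls of Wipi2 and Atg2b being lost without most single libraries, while Wdr45, Wdr45b and Atg2a were not called. Atg9a encodes the transmembrane lipid scramblase whose vesicles seed the growing membrane (chromosome 1, bases 75180860 to 75192196). It read 4.77, 4.79 and 4.54 FPKM in control and 6.11, 6.49 and 6.65 FPKM in PGAM5 KD libraries. Every PGAM5 KD library lay above every control library, and the log2 fold change was 0.38 (SE 0.0578, adjusted p = 0.00335). Ankzf1 overlaps 0.798% of its exon bases and was not itself called (0.11, adjusted p = 0.383). Gm29253 overlaps 31.8% of them on the same strand and was listed at 0, and fragments on those shared bases cannot be told apart.

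Vmp1 encodes a scramblase of the endoplasmic reticulum that is needed to release the growing membrane (chromosome 11, bases 86583865 to 86683836). It read 24.4, 23.5 and 23.2 FPKM in control and 28.4, 30.1 and 30.4 FPKM in PGAM5 KD libraries. The groups were separate, and the change was 0.31 (SE 0.0430, adjusted p = 0.00214). Of the members that rose, Vmp1 had the highest level, and it is the called gene whose promoter is shown above with the antioxidant core at position -168 from the start. The microRNA gene Mir21a lies within its exons on the same strand over 92 bases and was listed at 0 in all libraries. Fragments on these shared bases cannot be told apart, so this 0 does not describe the level of the microRNA.

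The PI3P readers of the WIPI family differed in level. Wipi2, which recruits the ATG16L1 complex to PI3P (chromosome 5, bases 142627698 to 142670588), read 7.63, 7.08 and 7.56 FPKM in control and 8.21, 9.18 and 9.23 FPKM in PGAM5 KD libraries. The groups did not overlap, and the change was 0.23 (SE 0.0618, adjusted p = 0.0302). This call was lost without control replicate 1, 2 or 3 (adjusted p = 0.057, 0.0897 and 0.0667) and without PGAM5 KD replicate 2 or 3 (0.0935 and 0.095), and also with no filter (0.0634), after scaling to TPM (0.0807) and with a replicate block (0.0694). Correcting for GC content and exon length raised the change to 0.36 (adjusted p = 0.00757). Wdr45b (WIPI3) was the most abundant reader, at 14.3 ± 0.902 and 15.8 ± 0.993 FPKM (SD, n = 3), and its change of 0.13 was not called (interval -0.02 to 0.28). Wdr45 (WIPI4) was near the filter at 1.34 ± 0.367 and 1.03 ± 0.233 FPKM (SD, n = 3), with an interval from -0.58 to 0.17.

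Wipi1, the remaining reader, was too low to be tested with the others (chromosome 11, bases 109573331 to 109611967). It read 0.325, 0.326 and 0.302 FPKM in control, from 26, 29 and 26 fragments, and 0.619, 0.662 and 0.958 FPKM in PGAM5 KD libraries, from 60, 53 and 103 fragments. All PGAM5 KD libraries lay above the controls, and the ratio of the group means was 2.35, the largest of any member. With no filter on low values, which tests 20816 genes, its log2 fold change was 0.40 (SE 0.0913, adjusted p = 0.0435), and the exact permutation test gave p = 0.1, the smallest possible with 3 libraries a group.

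Atg2a and Atg2b encode paralogous proteins that bridge membranes and pass lipid to the growing one. Atg2b (chromosome 12, bases 105616136 to 105685211) read 7.84, 8.33 and 8.37 FPKM in control and 7.09, 6.65 and 6.68 FPKM in PGAM5 KD libraries. Its libraries did not overlap, and it fell by 0.23 on the log2 scale (SE 0.0534, adjusted p = 0.0165). The call was lost without control replicate 2 or 3 (adjusted p = 0.0537 and 0.0568) and without PGAM5 KD replicate 2 or 3 (0.0554 and 0.0555). It was also lost with a replicate block (0.0542), and correcting for GC content and exon length moved the change to -0.08 (adjusted p = 0.273). Atg2a gave 4.41 ± 0.410 and 4.84 ± 0.390 FPKM (SD, n = 3) with an interval from -0.09 to 0.31. The ratio of Atg2b to Atg2a was 1.64 to 2.10 in control and 1.29 to 1.52 in PGAM5 KD libraries, a description of a pair chosen after the values were seen.

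**Figure D3:**
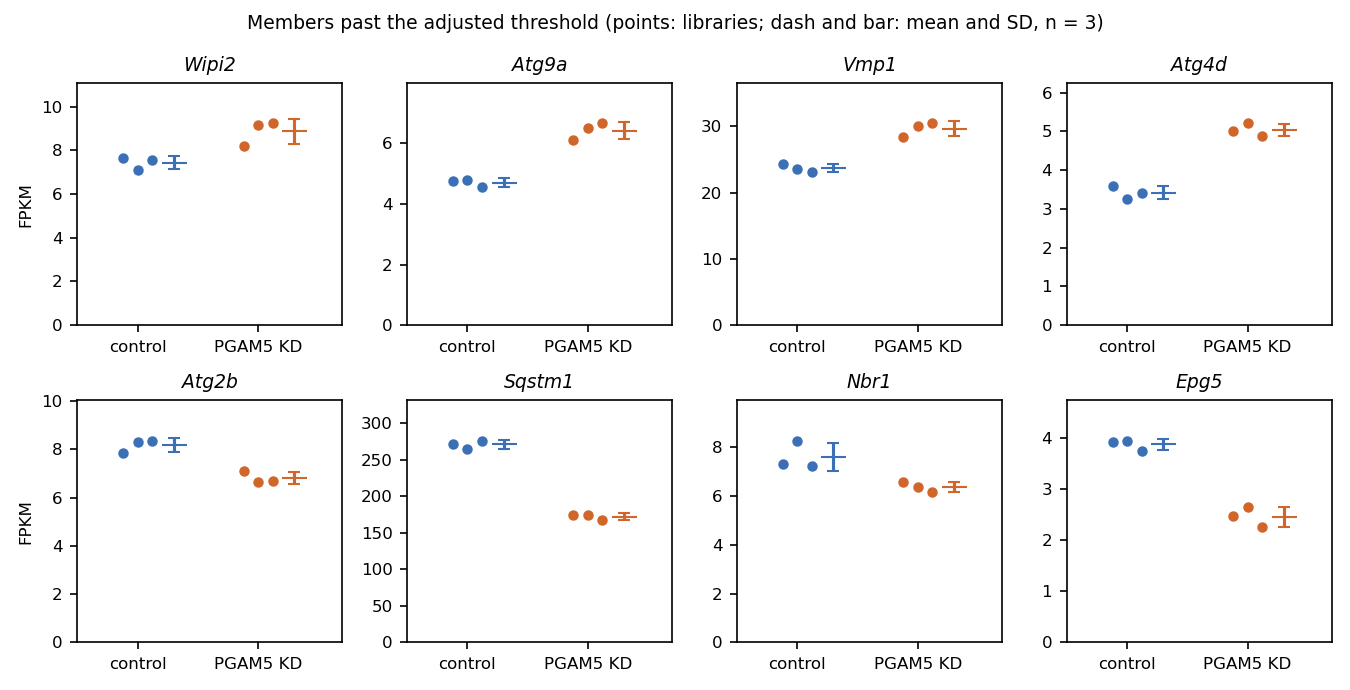
FPKM of the 8 called members in 3 control (blue) and 3 PGAM5 KD (orange) libraries, each gene on its own axis from 0, with the mean and SD (n = 3) beside the points. The libraries of the groups do not overlap for any of the 8, and Sqstm1 and Epg5 show the widest gaps, relative to their level, among those that fell.

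Among the 11 conjugation enzymes, only Atg4d was called (9.09%, against 31.7% of all genes). The group contains the activating enzyme Atg7, the conjugating enzymes Atg3 and Atg10, and the ubiquitin-like Atg12 with its target Atg5. It also contains Atg16l1, which places the conjugate on the membrane, and its paralog Atg16l2. The proteases Atg4a to Atg4d process ATG8 proteins and cleave them from lipid. Atg4d (chromosome 9, bases 21265293 to 21277772) read 3.59, 3.26 and 3.42 FPKM in control and 5.02, 5.21 and 4.88 FPKM in PGAM5 KD libraries. The groups were well apart, and the change was 0.45 (SE 0.0636, adjusted p = 0.00246). Atg4d went from 15.6% to 17.8% of summed ATG4 FPKM in control to 21.3% to 23.8% in PGAM5 KD libraries. Atg4a, Atg4b and Atg4c had fold changes of -0.0034, 0.0062 and 0.11, with intervals that reached at most 0.32 from zero.

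Atg4d shares 19.3% of its exon bases with Kri1, a ribosome assembly gene on the opposite strand, and the strand setting of the count is not given in the sources used here. Of the fragments on both genes, 45.2% to 61.5% were counted on Atg4d. On recovered fragments scaled to depth, Atg4d alone changed by 0.56 on the log2 scale and the sum of both genes by 0.24, while Kri1 itself was not called (-0.09, adjusted p = 0.545). The part of this overlap in the rise of Atg4d was not tested.

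The other 10 conjugation genes were not called. Their fold changes lay between -0.07 (Atg10) and 0.11 (Atg4c), and 8 of the 10 were positive, but 2 of the 10 after scaling to TPM. Atg3 was the most abundant, at 22.2 ± 0.841 and 23.9 ± 0.497 FPKM (SD, n = 3), and its libraries did not overlap (0.11, SE 0.0424, adjusted p = 0.103). Atg5, Atg7 and Atg12 differed by 0.03, 0.0099 and 0.03, with intervals that together reached from -0.15 to 0.22. Atg16l1 made up 71.0% to 74.4% of the summed ATG16L FPKM in control and 71.8% to 73.9% in PGAM5 KD libraries, with no separation.

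In the ATG8 family, which marks the membrane and docks receptors, 0 of 5 genes were called, against 31.7% of all genes. Gabarap was the second most abundant member of the machinery (chromosome 11, bases 69991143 to 69994951), at 77.1, 80.1 and 76.5 FPKM in control and 65.8, 73.6 and 71.5 FPKM in PGAM5 KD libraries. All PGAM5 KD libraries lay under the controls, but the change of -0.15 (SE 0.0478, adjusted p = 0.0538) missed the threshold, with an interval from -0.26 to -0.03. It passed in 6 of 15 alternatives, among them the GC and length correction (-0.27, adjusted p = 0.00484), scaling to TPM (-0.23, adjusted p = 0.00811), quantile normalization (-0.23, adjusted p = 0.0156) and leaving out PGAM5 KD replicate 2 (-0.18, adjusted p = 0.0478). Leaving out any other library gave an adjusted p of up to 0.149. Gabarap supplied 60.6% to 64.2% of summed ATG8 FPKM in control and 58.4% to 59.4% in PGAM5 KD libraries.

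Map1lc3a (LC3A) had the largest estimate of any member not called, 0.48, with an interval from 0.02 to 0.93 (adjusted p = 0.103). It was counted from 28 to 93 fragments, and its libraries ranged from 1.21 to 2.66 FPKM in control and from 2.53 to 3.58 FPKM in PGAM5 KD, so the groups overlapped. Without control replicate 1 it was called (0.65, adjusted p = 0.0458), and without control replicate 3 the estimate was 0.28 (adjusted p = 0.217). Map1lc3b (LC3B), the form most used as an autophagosome marker, gave 6.01 ± 0.497 and 5.81 ± 0.266 FPKM (SD, n = 3) with an interval from -0.21 to 0.13. Gabarapl1 and Gabarapl2 had group means between 19.2 and 20.4 FPKM, with changes of -0.02 and 0.07.

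Of the 3 cargo receptors, 2 were called, against 31.7% of all genes. Sqstm1 encodes p62, which binds ubiquitinated cargo and ATG8 proteins, serves as a signaling scaffold and is itself degraded by autophagy (chromosome 11, bases 50199366 to 50210827). It read 272, 265 and 276 FPKM in control and 175, 174 and 167 FPKM in PGAM5 KD libraries, from 10636 to 18083 fragments. The groups were far apart compared with their spread, and Sqstm1 fell by 0.65 on the log2 scale (SE 0.0314, 95% interval -0.72 to -0.58, adjusted p = 2.54e-05), to 0.636 of its control mean. On log2(FPKM + 1), which understates falls of genes with few FPKM, a fall of this size or more was seen in 2.51% of all genes tested. Mrnip overlaps 17.3% of its exon bases on the opposite strand, but at least 99.5% of the fragments of both genes were counted on Sqstm1.

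Nbr1, a related receptor that acts with p62 (chromosome 11, bases 101552149 to 101581951), read 7.29, 8.25 and 7.19 FPKM in control and 6.56, 6.36 and 6.16 FPKM in PGAM5 KD libraries. It fell by 0.22 on the log2 scale (SE 0.0648, adjusted p = 0.0404). The groups did not overlap, but the call was lost when any library was left out, with an adjusted p of 0.0656, 0.101 and 0.0568 without control replicate 1, 2 and 3 and of 0.0628, 0.0963 and 0.114 without PGAM5 KD replicate 1, 2 and 3. The Nbr1 call was also lost with no filter (0.0835), with the GC and length correction (0.0744) and with a replicate block (0.0701). Tax1bp1, the third receptor, stayed uncalled at 13.7 ± 0.682 and 13.8 ± 0.686 FPKM (SD, n = 3), with an interval from -0.12 to 0.15. Sqstm1 made up 92.3% to 93.0% of the summed FPKM of the 3 receptors in control and 89.2% to 89.9% in PGAM5 KD libraries. The ratio of Sqstm1 to Tax1bp1 was 19.2 to 20.9 in control and 11.9 to 13.1 in PGAM5 KD libraries, again as a description.

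Epg5, the tether that brings autophagosomes to lysosomes, was the only member of the last step. It read 3.93, 3.96 and 3.76 FPKM in control and 2.48, 2.65 and 2.26 FPKM in PGAM5 KD libraries. No library of one group reached the range of the other, and Epg5 fell by 0.50 on the log2 scale (SE 0.0752, adjusted p = 0.00326), to 0.634 of its control mean, a ratio close to that of Sqstm1.

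To place the machinery in its pathway, 43 other autophagy genes were read in the same fit. Of these, 38 were tested, and the PGAM5 KD level was higher for 4 and lower for 7 (28.9% called, against 31.7% of all genes, 16.8% higher and 14.9% lower). The median of their log2 fold changes was -0.07. Among 14 fusion genes, 4 fell and 1 rose. Plekhm1, an adaptor between RAB7, the HOPS tethering complex and ATG8 proteins, fell by 1.03 (SE 0.0389, adjusted p = 1.57e-05), from 37.3 ± 0.326 to 17.8 ± 0.604 FPKM (SD, n = 3). The HOPS and CORVET subunits Vps18 and Vps33a changed by -0.31 and -0.26. The remaining calls of this list, Ykt6 at -0.20 and Vps16, also a HOPS and CORVET subunit, at 0.21, are named here after their values were seen. The HOPS subunits Vps11, Vps39 and Vps41 were not called, so the complex did not change in 1 direction. The share called in this list, 5 of 14, is near the 31.7% of all genes. Its genes were chosen for acting in fusion, with earlier results of these data known.

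Upstream of ULK1, 1 of 7 tested genes of mTORC1 and its TSC inhibitors was called, Rptor, the substrate-recruiting subunit (-0.18, SE 0.05, adjusted p = 0.0321). All 7 estimates were negative, from -0.24 to -0.03, but 3 of the 7 when corrected for GC content and exon length, and the libraries did not overlap for 5 of the 7 (71.4%, against 47.1% of all genes). The share called was 14.3% in this list, 20% in the AMPK and membrane factor lists and 42.9% in the receptor list, against 31.7% of all genes. Of 5 tested AMPK subunits, Prkag1, a gamma subunit that senses AMP, rose by 0.35 (SE 0.0617, adjusted p = 0.00611). Of 7 other receptors and adaptors tested, Wdfy3 (ALFY), a scaffold that links p62 bodies to the membrane, fell by 0.48 (SE 0.0546, adjusted p = 0.000979), and the endoplasmic reticulum receptors Sec62 and Retreg1 rose by 0.29 and 0.28. In 5 other membrane factors, Atg9b, the paralog of Atg9a, changed by -0.30 (SE 0.0798, adjusted p = 0.0289). Atg9a accounted for 32.5% to 36.7% of the FPKM of both paralogs in control and 47.5% to 48.8% in PGAM5 KD libraries. Their sum was 13.5 ± 1.09 FPKM in control and 13.4 ± 0.516 FPKM in PGAM5 KD libraries (SD, n = 3). Without control replicate 2, or without PGAM5 KD replicate 2 or 3, 7 of the 38 genes were called, against 23.8%, 23.2% and 22.2% of all genes. Without PGAM5 KD replicate 1, 6 of the 38 were called, against 27.1% of all genes.

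**Figure D4:**
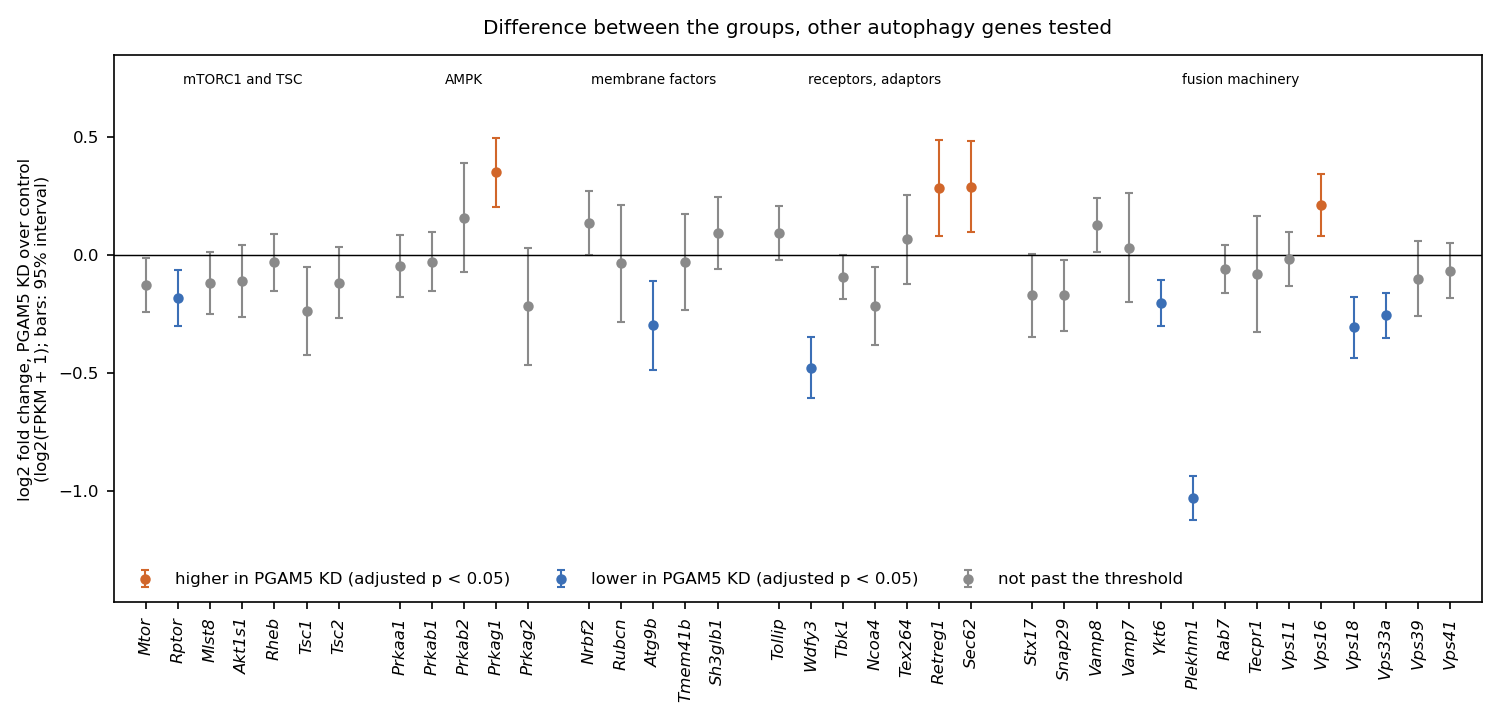
Log2 fold change (PGAM5 KD over control, on log2(FPKM + 1)) with its 95% interval for the 38 other autophagy genes tested, grouped by function, from limma on 3 control and 3 PGAM5 KD libraries. Plekhm1 lies lowest at -1.03, most other intervals lie within 0.5 of zero, and the called genes are 4 higher (orange) and 7 lower (blue).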

How the data were processed

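RNA from 3 control and 3 PGAM5 KD iBMDM samples was measured by poly(A) RNA-seq, and groups came from the labels. The authors deposited FPKM, 1 table per library. The processing notes name HISAT2 2.0.5, featureCounts 1.5.0-p3 and the build mm10, and the annotation release and strand setting are not given in the sources used here. Names, exon lengths and coordinates came from GENCODE M21 (GRCm38, the same assembly), which held 54495 of 54532 identifiers.

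FPKM times exon length fell within 0.01 of whole fragments for 96.8% to 97.1% of values under 1000 fragments, which gave the depth. Genes with a mean of at least 1 FPKM (10540) were tested on log2(FPKM + 1) with limma 3.58.1 in R 4.3.3 (lmFit, eBayes with a trend, two-sided, Benjamini-Hochberg). The study's methods name iDEP with thresholds of 0.05 on the adjusted p and 1 on the absolute log2 fold change. In simulated data with 2.5-fold changes and a fixed dispersion, 192 of 195 changed genes were called and 16 calls were false. Smaller changes, such as those of the called members, were not simulated, so these rates do not describe them. The members, steps and lists were chosen with earlier results of these data known.

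Per-library values are given for called members, the untested member and the 3 tested members of highest mean FPKM (Sqstm1, Gabarap and Vmp1). Other members are given by fold change or range. Of the other autophagy genes, at most 3 called genes per list were to be named, by size of change. Genes resembling a member (blastn 2.17.0) were required to match over 25% of its transcript, a rule set after a first search matched repeats. At least 97.5% of fragments were then on the member. Recovered fragments for Atg12 and Epg5 were up to 0.377 and 0.356 from whole numbers. No count model was the main test because the values are FPKM. The alternatives were a pseudocount of 0.1, no filter, a mean FPKM of at least 5, TPM, quantile normalization, correction for GC content and exon length, no trend, voom on recovered fragments, a replicate block and leaving out each library.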

Additional observations from a re-analysis of the deposited data

How the results depend on the processing

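Across 15 alternatives, the calls of Atg9a, Vmp1, Sqstm1 and Pgam5 were kept in all 15, and those of Atg4d and Epg5 in the 14 that tested them. A mean FPKM of at least 5 left these last members and other low genes without a value. Wipi2 was called in 7 of 15 (adjusted p from 0.00411 to 0.095), Atg2b in 9 (0.00056 to 0.273) and Nbr1 in 6 (0.0107 to 0.114). No called member reversed, and the cause of the lost calls was not tested. Same-numbered libraries did not deviate together (correlations -0.020, 0.016 and -0.052), so the numbers were not taken as pairs. With a replicate block, 6 members were called, 2 of them lower, while 25.2% of all genes were called. Map1lc3a was gained (adjusted p = 0.0346), and the calls of Wipi2, Atg2b and Nbr1 were lost.

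With no filter, 6 of 41 other autophagy genes were called, a larger share than the 12.4% of all genes, while in the main fit their share was the smaller. After scaling to TPM 16 of 38 were called (all genes 32.0%), and 14 with voom (all genes 37.0%). The median of the members was -0.0683 after scaling to TPM and 0.0384 after correction for GC content and exon length. Leaving out 1 library each time, between 5 and 7 members were called, 2 to 3 of them lower, and between 6 and 10 other autophagy genes, while the share of all genes called went from 31.7% to between 22.2% and 27.1%. The libraries without which 5 members were called were control replicates 2 and 3 and PGAM5 KD replicate 3.

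Some uncalled members with changes close to 0 reversed sign. After scaling to TPM these were Atg12 (-0.0414), Atg16l1 (-0.0400), Atg16l2 (-0.0186), Atg4b (-0.0674), Atg5 (-0.0449), Atg7 (-0.0652), Becn1 (-0.0727), Gabarapl2 (-0.0071), Rb1cc1 (-0.0159), Tax1bp1 (-0.0624) and Uvrag (-0.0692). With quantile normalization they were Atg4a (0.0018) and Tax1bp1 (-0.0182). With the GC and length correction they were Ambra1 (0.0333), Atg101 (-0.0301), Atg5 (-0.0536), Gabarapl2 (-0.0203), Map1lc3b (0.0350), Pik3r4 (0.0646) and Ulk2 (0.0095), and with voom Atg4b (-0.0049), Becn1 (-0.0018) and Uvrag (-0.0049). Leaving out 1 library each time, the lowest and highest values of the members that reversed were Ambra1 from -0.0556 to 0.00447, Atg12 from -0.0305 to 0.0935, Atg16l1 from -0.0455 to 0.0677, Atg16l2 from -0.0112 to 0.0751, Atg4a from -0.127 to 0.0613, Atg4b from -0.0351 to 0.0731, Atg5 from -0.00364 to 0.0804, Atg7 from -0.0485 to 0.0397, Becn1 from -0.017 to 0.0275, Gabarapl1 from -0.0736 to 0.0165, Pik3r4 from -0.105 to 0.00412, Rb1cc1 from -0.0179 to 0.0712, Tax1bp1 from -0.0235 to 0.0459, Ulk2 from -0.0754 to 0.0678 and Uvrag from -0.049 to 0.0351.

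Depth limits Wipi1, Map1lc3a, Wdr45 and Atg10, which rest on 118 fragments or fewer in every library. Neither group had an untreated arm, so the differences describe LPS-treated cells. Genes that overlap on opposite strands, Atg4d and Kri1 among them, could not be separated without the strand setting.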
